A study of Mus musculus with 4 samples.

Results

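The 10 genes described here are listed as genes of the acinar cells of the exocrine pancreas, and their RNA was measured in intestinal mucosa of mice. They are the secreted enzymes, proenzymes and cofactor Prss2, Ctrb1, Cpa1, Clps, Cel and Pnliprp1, the zymogen granule proteins Sycn, Gp2 and Cuzd1, and 2210010C04Rik. They were taken by name out of 12393 genes with a probe set of their own, with earlier results of these arrays known, and all their probe sets, 17 in number, were used. The signals that led to their choice are those of the same 4 arrays, so every value below is a description and none is a test. All 10 had a mean scaled signal of at least 100 over the arrays, as had 8036 genes in all.

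Male mice of the inbred strains A/J and C57BL/6J were studied at 10 weeks of age, after 2 weeks on a high-fat or a low-fat diet. The 4 groups were A/J high-fat, A/J low-fat, C57BL/6J high-fat and C57BL/6J low-fat, with 6 mice in each and no allele, agent or transgene named beyond strain and diet. For each group, 2 mice near the average in body weight gave RNA for a single pool, and each pool was read on 1 Affymetrix array, Mouse Expression Array 430A, which measures each gene through 1 or more sets of short probes. There were thus no replicate arrays, no SD and no p, and precision is limited by having 4 arrays.

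Acinar cells store digestive enzymes in zymogen granules, mostly as inactive proenzymes, and release them into the pancreatic duct when a meal reaches the duodenum. Trypsin then activates the other proenzymes in the gut lumen. The enzyme genes are transcribed mainly in acinar cells, under a factor complex called PTF1, whose known sites join an E-box (CANNTG) to a TC-rich box (TTTCCC). Intestinal epithelium is not known as a source of most of these enzymes, whose proteins reach its surface in pancreatic juice.

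The promoters of 9 of the 10 genes are in the RefSeq table of build GRCm38.p6, as windows of 250 bases before and 50 bases after the start of the gene. Those of the 4 genes that hold the box TTTCCC on either strand are shown, since PTF1 sites are the feature that acinar promoters are known to share. Capitals mark each CANNTG and each TTTCCC, the box also where it lies on the opposite strand and reads GGGAAA, and the 2 motifs do not overlap in these windows.
Prss2, chr6:41521526-41521825, plus strand: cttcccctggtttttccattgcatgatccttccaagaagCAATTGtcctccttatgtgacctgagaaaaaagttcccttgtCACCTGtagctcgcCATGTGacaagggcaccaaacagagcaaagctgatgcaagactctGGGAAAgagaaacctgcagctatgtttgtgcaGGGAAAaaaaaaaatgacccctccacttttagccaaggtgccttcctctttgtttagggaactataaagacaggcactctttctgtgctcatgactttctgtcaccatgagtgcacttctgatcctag
Ctrb1, chr8:111690961-111691260, minus strand: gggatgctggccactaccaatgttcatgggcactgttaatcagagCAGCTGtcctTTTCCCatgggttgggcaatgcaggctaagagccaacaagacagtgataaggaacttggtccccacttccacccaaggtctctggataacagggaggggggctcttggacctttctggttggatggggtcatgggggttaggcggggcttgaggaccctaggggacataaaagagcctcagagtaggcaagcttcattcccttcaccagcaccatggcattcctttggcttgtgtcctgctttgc
Cpa1, chr6:30638968-30639267, plus strand: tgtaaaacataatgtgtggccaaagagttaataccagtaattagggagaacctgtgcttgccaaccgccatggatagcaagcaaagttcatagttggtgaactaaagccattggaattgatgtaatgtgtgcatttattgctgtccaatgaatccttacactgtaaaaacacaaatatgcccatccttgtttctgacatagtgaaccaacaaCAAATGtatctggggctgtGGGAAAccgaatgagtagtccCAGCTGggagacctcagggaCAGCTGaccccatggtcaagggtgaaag
Cel, chr2:28563354-28563653, minus strand: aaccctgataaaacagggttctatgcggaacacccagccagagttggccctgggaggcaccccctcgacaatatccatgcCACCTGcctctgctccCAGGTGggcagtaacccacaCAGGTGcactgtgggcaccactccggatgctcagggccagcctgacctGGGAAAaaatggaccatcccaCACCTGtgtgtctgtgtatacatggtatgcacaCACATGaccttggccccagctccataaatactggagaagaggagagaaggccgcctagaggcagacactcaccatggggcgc
The box TTTCCC was found in 25.2% of all 32851 promoter windows, against 4 of these 9, and CANNTG in 72.3% of all, against 8 of 9. A joined form was searched first as CANNTG followed after 4 bases by TTTTCC, which 29 windows of the table held on either strand, or 0.0883%, and 0 of the 9. It was then respelled to match the Ctrb1 sequence, once that had been read, as CANNTG followed after 3 bases by TTTTCCC. That form was found on either strand in 11 windows, or 0.0335%, and of the 9 in Ctrb1 alone, with the E-box beginning 205 bases before the start. Since the spelling was taken from Ctrb1, nothing is read from its match. TATAAA lay in the windows of Prss2, Gp2 and 2210010C04Rik, and in 13.6% of all windows. A match is a stretch of letters and not a measured binding site.

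By location on GRCm38.p6, Prss2 lies on chromosome 6 at 41521776 to 41525079 and 2210010C04Rik on the same chromosome at 41030268 to 41035509, 486 kb apart. Cpa1 lies on chromosome 6 at 30639218 to 30645361. The other 7 genes lie on chromosomes 2 (Cel), 7 (Sycn, Gp2 and Cuzd1), 8 (Ctrb1), 17 (Clps) and 19 (Pnliprp1), so these genes are not a single cluster.

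The arrays were made comparable by multiplying each by a factor of between 2.72 and 3.41, which set its trimmed mean signal to 500. All values below are such scaled signals of a gene's brightest probe set. On each array, 58.6% to 60.3% of probe sets reached 100, the floor below which signals have no order and to which they are raised before a ratio is taken. Where one of the signals is at the floor, the ratio is a bound, written as at least that many fold. Markers of enterocytes, the main cell of the labelled tissue, were bright on every array. The microvillus protein gene Vil1 had 11616 and 12411 on A/J high-fat and low-fat, and 12732 and 12909 on C57BL/6J high-fat and low-fat, and the 6 enterocyte markers found summed to between 89696 and 95375. The ileal genes of bile acid binding and uptake, Fabp6 and Slc10a2, were under the floor on all 4 arrays, while the duodenal factor Pdx1 lay between 494 and 506. Other regional markers differed from these. Cubn, also listed as ileal, had 2595 on A/J high-fat and 3921 on A/J low-fat, with 887 and 901 on C57BL/6J high-fat and low-fat. Hamp, also listed as duodenal, was under the floor on both high-fat arrays and had 109 on A/J low-fat and 139 on C57BL/6J low-fat. The arrays differed in 18S ribosomal RNA: its 5' probe set gave 84.4 on A/J high-fat and 218 on A/J low-fat, with 1675 on C57BL/6J high-fat and 11010 on C57BL/6J low-fat. A/J high-fat was lowest in 18S as in the acinar genes, but 18S was highest on C57BL/6J low-fat and the acinar genes on C57BL/6J high-fat.

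The acinar genes were bright in 3 pools and nearly dark in the fourth. Together the 10 genes held 0.0109% of the total signal on A/J high-fat and 0.413% on A/J low-fat, with 0.627% on C57BL/6J high-fat and 0.379% on C57BL/6J low-fat. All 10 were above the floor on the other 3 arrays, and 5 of 10 were under it on A/J high-fat. All 17 probe sets were lowest on A/J high-fat and highest on C57BL/6J high-fat. In pooled tissue, fewer cells of a type and less RNA per cell cannot be told apart. The plot of signals by gene shows the gap between A/J high-fat and the rest.

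**Figure D1:**
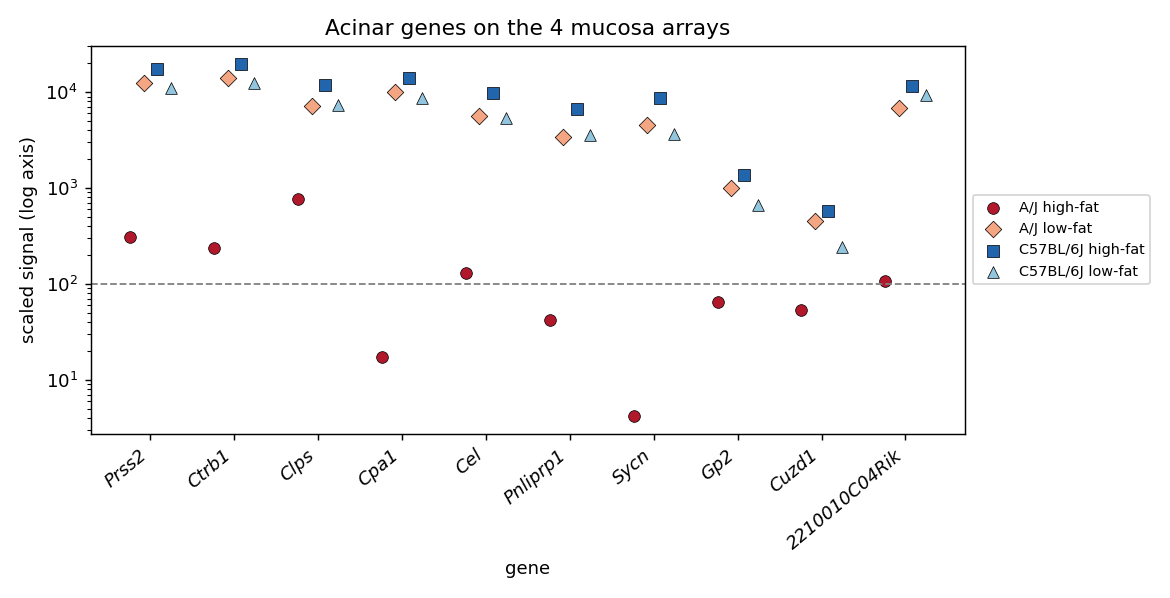
Scaled signal (log axis) of each of the 10 acinar genes on the 4 arrays, 1 point per array, with the floor of 100 as a dashed line; points under it have no order. The A/J high-fat points lie far under those of the other 3 arrays for every gene, and C57BL/6J high-fat is the highest.

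Among the proteases, the trypsinogen gene Prss2 gave 309 on A/J high-fat and 12521 on A/J low-fat, with 17355 on C57BL/6J high-fat and 11154 on C57BL/6J low-fat. It was 40.5-fold lower on high-fat in A/J and 1.56-fold higher in C57BL/6J. That brightest probe set of Prss2 is one the maker marks as able to match other transcripts; the only Prss2 probe set not so marked was under the floor on A/J high-fat, so that its A/J ratio was lower by 97.4-fold or more on high-fat, and its C57BL/6J ratio was 1.42-fold higher. Ctrb1, which encodes chymotrypsinogen B and whose promoter is shown above, had 235 on A/J high-fat and 14074 on A/J low-fat, with 19873 on C57BL/6J high-fat and 12588 on C57BL/6J low-fat. That is 59.8-fold lower on high-fat in A/J and 1.58-fold higher in C57BL/6J.

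Cpa1, the gene of procarboxypeptidase A1, which trims amino acids from the ends of peptides, was under the floor on A/J high-fat and had 9945 on A/J low-fat. On the C57BL/6J arrays it had 14176 on high-fat and 8604 on low-fat. The A/J ratio was therefore at least 99.5-fold lower on high-fat, and the C57BL/6J ratio 1.65-fold higher. The platform annotation and the RefSeq table give 2210010C04Rik no function, so none is stated here. It had 107 on A/J high-fat, just above the floor, and 6914 on A/J low-fat, with 11584 on C57BL/6J high-fat and 9273 on C57BL/6J low-fat. Its ratio was 64.4-fold lower on high-fat in A/J and 1.25-fold higher in C57BL/6J, the smallest of the 10 in that strain.

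Among the genes of fat digestion, Clps encodes colipase, the cofactor that anchors pancreatic lipase on fat droplets coated with bile salts. It had 764 on A/J high-fat and 7115 on A/J low-fat, with 11935 on C57BL/6J high-fat and 7292 on C57BL/6J low-fat. It was 9.31-fold lower on high-fat in A/J, with the highest signal of any of these genes' probe sets on that array, and 1.64-fold higher in C57BL/6J. Cel, the gene of the bile salt-dependent lipase that splits cholesterol esters and other lipid esters, had 129 on A/J high-fat and 5679 on A/J low-fat, with 9860 on C57BL/6J high-fat and 5342 on C57BL/6J low-fat. It was 44.0-fold lower on high-fat in A/J and 1.85-fold higher in C57BL/6J. Pnliprp1 encodes a relative of pancreatic lipase. It was under the floor on A/J high-fat and had 3423 on A/J low-fat, then 6649 on C57BL/6J high-fat and 3587 on C57BL/6J low-fat, at least 34.2-fold lower on high-fat in A/J and 1.85-fold higher in C57BL/6J.

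The granule protein genes were all under the floor on A/J high-fat. Sycn encodes syncollin, a protein on the inner side of the granule membrane, and had 4579 on A/J low-fat, then 8738 on C57BL/6J high-fat and 3679 on C57BL/6J low-fat. Its ratio was at least 45.8-fold lower on high-fat in A/J and 2.37-fold higher in C57BL/6J. Gp2 encodes the main glycoprotein of the granule membrane, which M cells of the intestine are known to carry too. It had 992 on A/J low-fat, then 1363 on C57BL/6J high-fat and 670 on C57BL/6J low-fat, at least 9.92-fold lower on high-fat in A/J and 2.04-fold higher in C57BL/6J. Cuzd1, which encodes another protein of the granule membrane, had 456 on A/J low-fat, then 576 on C57BL/6J high-fat and 244 on C57BL/6J low-fat. It was at least 4.56-fold lower on high-fat in A/J and 2.36-fold higher in C57BL/6J. The bounds of Gp2 and Cuzd1 are set by their low-fat signals, since a floor of 100 allows no larger ratio.

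Counted together, 10 of 10 genes were at least 2-fold lower on high-fat in A/J, where 1.05% of all 8036 genes were. The median log2 ratio was -5.40 with the 5 genes at the floor taken at their bound, against 0.01 for all genes. In C57BL/6J 3 of 10 were higher on high-fat by 2-fold or more, where 1.02% of all genes were, and 9 were higher by 1.5-fold or more, where 5.13% of all genes were. The median was 0.80, with a range of 0.32 to 1.25, against -0.01 for all genes. The 10 genes were chosen on these contrasts, so nothing is read from these shares.

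**Figure D2:**
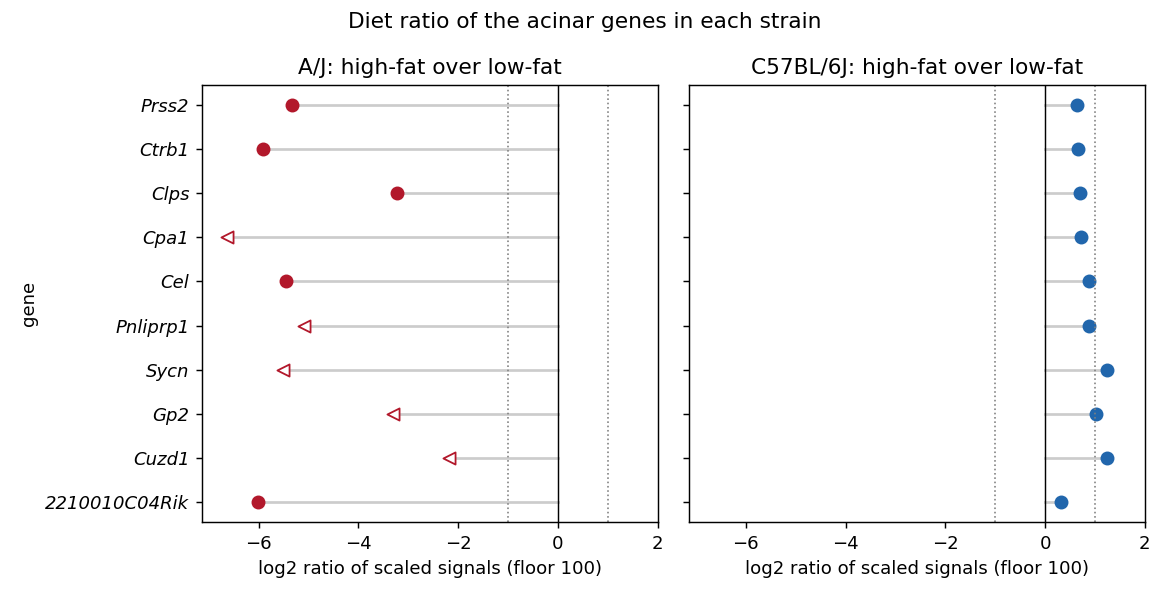
Log2 ratio of scaled signals, high-fat over low-fat, for each acinar gene in A/J (left) and C57BL/6J (right); filled circles are measured ratios, open triangles bounds with the A/J high-fat side at the floor, and dotted lines mark 2-fold. All 10 lie below 0 in A/J, between -6.64 and -2.19, and above 0 in C57BL/6J.

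Between strains, each of the 10 genes differed by less than 2-fold in the low-fat pools and by more in the high-fat pools. On the low-fat diet the ratios of A/J over C57BL/6J ranged from 0.746 for 2210010C04Rik to 1.87 for Cuzd1, with a median of 1.12. Of the 10 genes, 0 differed by 2-fold, where 2.64% of all genes were at least 2-fold lower and 3% at least 2-fold higher. With so small a share of all genes past 2-fold, nothing is read from the 0. On the high-fat diet all 10 were at least 2-fold lower in A/J, where 2.38% of all genes were, with a median log2 ratio of -6.15 when bounds are used. Prss2 was 56.2-fold lower in A/J than in C57BL/6J (at least 129-fold in the probe set not marked as shared), Ctrb1 84.5-fold lower, Cel 76.3-fold lower, 2210010C04Rik 108-fold lower and Clps 15.6-fold lower. The high-fat contrast between strains uses the same A/J high-fat array as the diet contrast in A/J.

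The probe sets of one gene gave the same direction by diet within each strain but not always the same size, as the plot of every probe set shows. The 4 probe sets of Prss2, of which 3 are marked by the maker as able to match other transcripts, had between 32.2 and 309 on A/J high-fat and between 9290 and 12521 on A/J low-fat. They were 40.5-fold, 58.3-fold, at least 92.9-fold and at least 97.4-fold lower on high-fat in A/J, so the size of the Prss2 ratio depends on the probe set. In C57BL/6J their ratios of high-fat over low-fat ran between 1.42 and 1.56. Clps had 764 and 7115 in one probe set on A/J high-fat and low-fat, and 273 and 2582 in the other, which is 9.31-fold and 9.47-fold lower. Both probe sets of Clps thus gave nearly the same A/J ratio at different brightness. In C57BL/6J they gave 1.64-fold and 1.99-fold higher on high-fat.

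The probe sets of Sycn were both under the floor on A/J high-fat, and 2.37-fold and 2.69-fold higher on high-fat in C57BL/6J. The 3 probe sets of 2210010C04Rik agreed less. On high-fat in C57BL/6J they were 1.43-fold, 1.25-fold and 1.05-fold higher, and A/J low-fat over C57BL/6J low-fat gave 0.962, 0.746 and 0.647. Trypsin genes are a family of near copies, so signals of Prss2 and of other trypsin genes may be shared between probe sets.

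**Figure D3:**
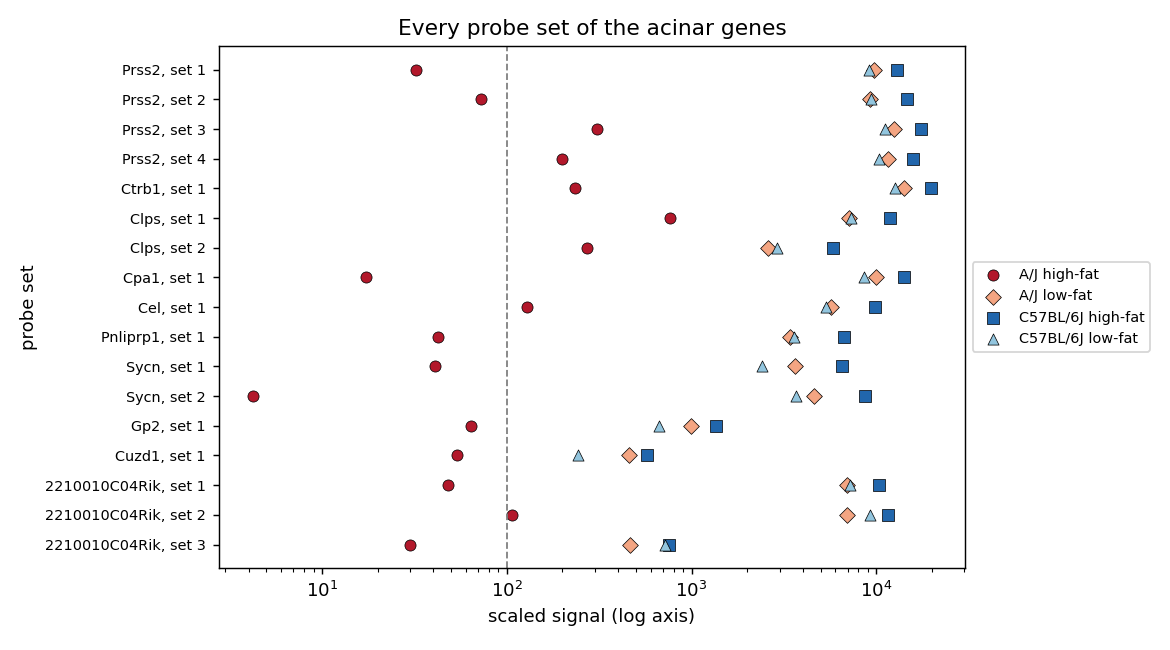
Scaled signal (log axis) of all 17 probe sets of the 10 acinar genes, with the floor of 100 as a dashed line and 1 point per array. The A/J high-fat point is the lowest and the C57BL/6J high-fat point the highest in each of the 17, and 10 of the 17 are under the floor on A/J high-fat.

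Whether the genes kept their proportions was read from ratios between 2 of them on 1 array, set against the same ratio on another array, because the brightness of different probes cannot be compared directly. If every gene changed by one common factor, each such ratio would be the same on both arrays. Between C57BL/6J high-fat and low-fat, 20 of the 45 pairs changed their ratio by less than 1.2-fold, 39 by less than 1.5-fold and 0 by 2-fold, with a median change of 1.25-fold. The largest change, 1.90-fold, was that of Sycn to 2210010C04Rik. Without 2210010C04Rik, 33 of 36 pairs stayed within 1.5-fold, and the same count held without Sycn. Without Prss2 or without Cuzd1 it was 32 of 36. Prss2, Ctrb1, Clps and Cpa1 were 1.56-fold to 1.65-fold higher on high-fat, so these 4 kept nearly one proportion.

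The SD of the 10 log2 ratios in C57BL/6J was 0.29. That of the other genes with a signal of at least 1000 on both arrays was 0.30, a cut that Gp2 and Cuzd1 did not meet. Pairs of other genes were not counted, so the pair counts are not read as particular to the acinar genes. By brightness of the probe set used, Pnliprp1, Sycn, Gp2 and Cuzd1, all under 5000 on C57BL/6J low-fat, were 1.85-fold to 2.37-fold higher on high-fat, and the 6 at 5000 or more were 1.25-fold to 1.85-fold higher. Among the probe sets of 2210010C04Rik the order ran the other way: the dimmest, at 716 on C57BL/6J low-fat, gave the smallest ratio of all 17, 1.05-fold. The part of brightness in these differences was not tested.

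Between A/J low-fat and C57BL/6J low-fat, the SD of the 10 log2 ratios was 0.36. That of the other genes with a signal of at least 1000 on both arrays was 0.42. Of the 45 pairs of acinar genes, 31 stayed within 1.5-fold, with a median change of 1.28-fold. Of the 14 that did not, 8 involved Cuzd1 and 5 involved 2210010C04Rik. The pair of these 2 genes is counted in both and changed the most, by 2.50-fold. Prss2 and Ctrb1 were 1.12-fold higher in A/J, and their ratio to each other was nearly equal on both arrays. The plot of departures from the median ratio shows 2210010C04Rik lowest in both contrasts, with Sycn highest by diet in C57BL/6J and Cuzd1 highest between strains; the contrasts share the C57BL/6J low-fat array.

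**Figure D4:**
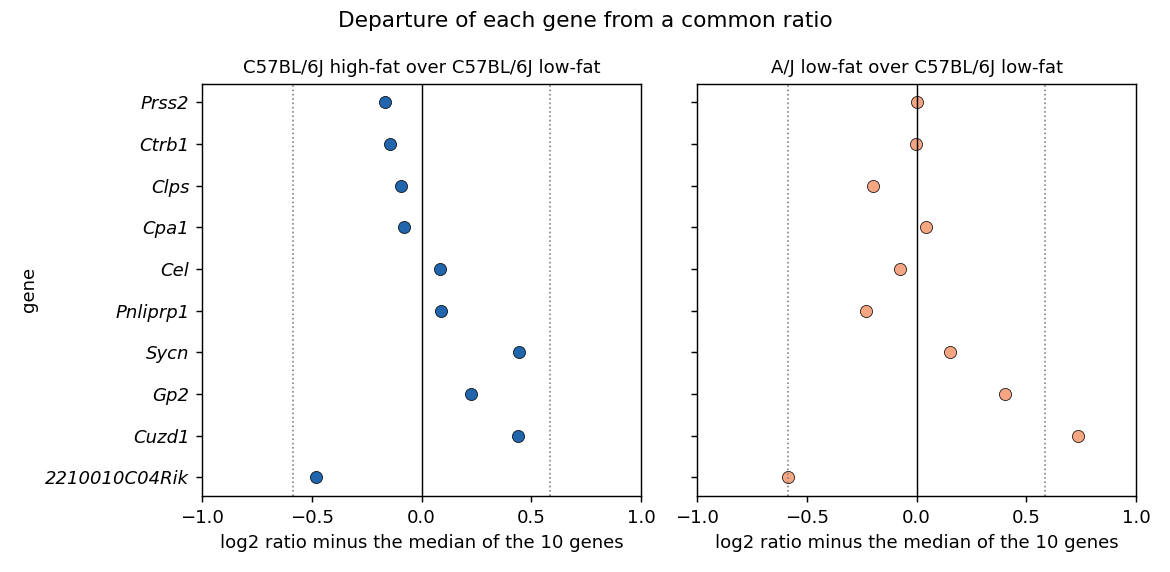
Log2 ratio of each acinar gene minus the median of the 10, for C57BL/6J high-fat over low-fat (left) and A/J low-fat over C57BL/6J low-fat (right), with dotted lines at 1.5-fold. Most genes lie near 0; 2210010C04Rik is the lowest on both sides, at -0.48 and -0.59, and Cuzd1 reaches 0.74 on the right.

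Between A/J high-fat and low-fat the ratios between genes changed most for Clps. The SD of the log2 ratios of the 5 genes above the floor on both arrays was 1.14. That of genes with a signal of at least 1000 on both arrays, which no acinar gene had, was 0.29. Of the 45 pairs, 10 had both genes above the floor on both arrays. Among the 6 without Clps, the ratio changed by 1.08-fold to 1.59-fold. The ratio of Ctrb1 to 2210010C04Rik changed by 1.08-fold. Of these 6, 3 use the brightest Prss2 probe set, which may match other trypsin genes. With the unmarked Prss2 probe set in its place, Prss2 is at the floor, its ratio to Cel changed by at least 2.22-fold, and the 3 pairs left with both genes above the floor changed by 1.08-fold to 1.47-fold. Each of the 4 pairs with Clps changed more. The ratio of Clps to Cel was 5.92 on A/J high-fat and 1.25 on A/J low-fat, a change of 4.72-fold, and that of Clps to 2210010C04Rik changed by 6.92-fold.

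Of the 5 genes at the floor on A/J high-fat, Cpa1, Pnliprp1 and Sycn had bounds more than 1.5 times the fall of Clps. Gp2, with at least 9.92-fold, was just past the 9.31-fold of Clps, and Cuzd1, with at least 4.56-fold, cannot be placed. The signals of Cel and 2210010C04Rik on A/J high-fat lie so near the floor that their ratios to the other genes depend on it. With a floor of 200, 3 genes (Prss2, Ctrb1 and Clps) were left with both signals above it. The ratio of Prss2 to Clps was 0.404 on A/J high-fat and 1.76 on A/J low-fat, and that of Ctrb1 to Clps was 0.308 and 1.98.

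Of 41 other gene names listed for acinar cells, 20 were found and 17 were measured; the list was written with earlier results known. On high-fat in A/J 10 of the 17 were at least 2-fold lower, where 1.05% of all genes were, and 0 were higher by as much, where 0.796% were; their median was -1.69 on the log2 scale with bounds used. The elastase genes Cela3b was at least 109-fold lower and Cela2a at least 82.6-fold lower, the procarboxypeptidase gene Cpb1 at least 79.5-fold lower and the chymotrypsin-like gene Ctrl at least 73.8-fold lower. Like Clps, Cela1 kept a signal above the floor. It had 595 on A/J high-fat and 9913 on A/J low-fat, 16.7-fold lower. Rnase1, the pancreatic ribonuclease gene, had 323 on A/J high-fat and 8131 on A/J low-fat, 25.2-fold lower. The lipase relative Pnliprp2 and the kallikrein gene Klk1 were 3.23-fold and 3.14-fold lower, Ctrc at least 3.25-fold and the phospholipase gene Pla2g1b at least 4.96-fold lower. The probe sets used for Cela3b, Klk1 and Pla2g1b are ones the maker marks as able to match other transcripts. In C57BL/6J 0 of the 17 reached 2-fold in either direction, where 1.69% of all genes did, and their median was 0.38.

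The 7 listed genes not called at 2-fold in A/J included 4 that were bright on every array. The trypsin inhibitor gene Spink1 had 10614 on A/J high-fat and 12221 on A/J low-fat, with 12674 on C57BL/6J high-fat and 14941 on C57BL/6J low-fat. Reg1, Zg16 and Dmbt1, which intestinal epithelium is known to make as well, had A/J ratios of high-fat over low-fat of 0.780, 1.04 and 0.950. The other 3, Prss3, Serpini2 and Tmed6, were under the floor on A/J high-fat, and Prss3 on A/J low-fat too. Serpini2 was at least 1.97-fold and Tmed6 at least 1.18-fold lower on high-fat in A/J. Whether these 3 fell by 2-fold cannot be told. The plot of these diet ratios shows the split of the list.

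**Figure D5:**
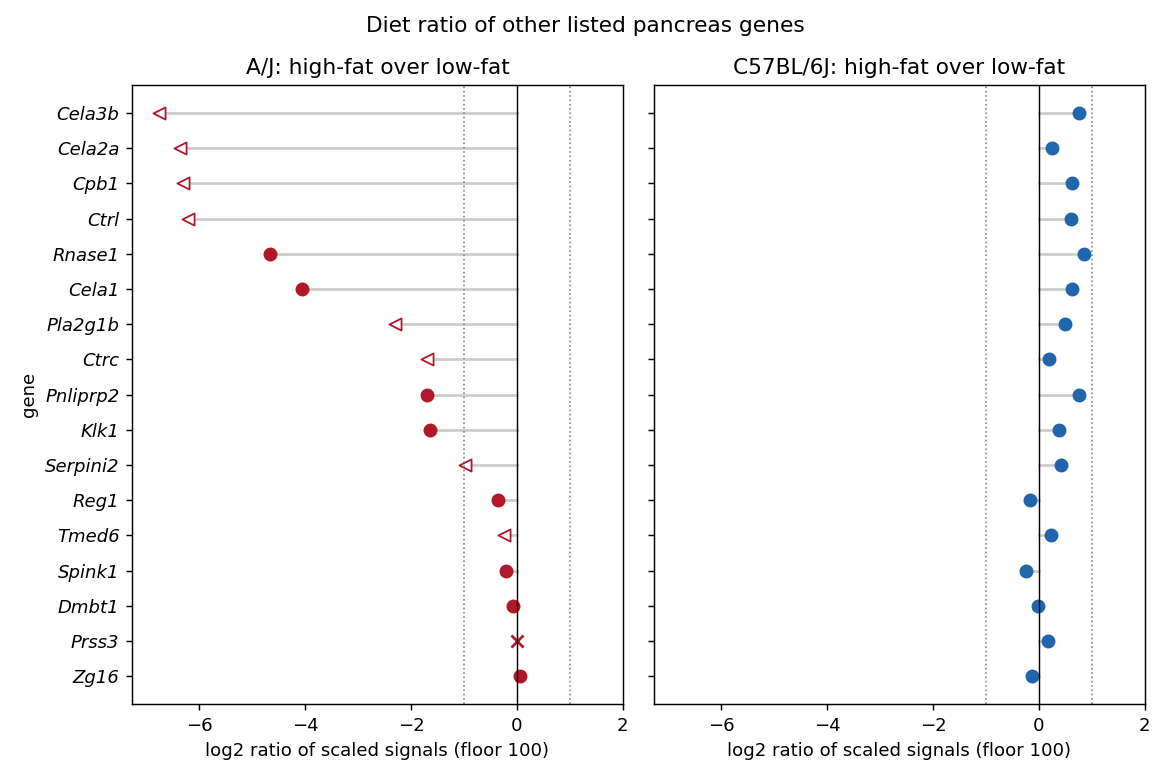
Log2 ratio of scaled signals, high-fat over low-fat, for the 17 measured genes of the list of other acinar genes, in A/J (left) and C57BL/6J (right), with symbols as in the plot of diet ratios and a cross where both signals were under the floor. In A/J 10 genes lie past the 2-fold line below 0 and Spink1, Reg1, Zg16 and Dmbt1 lie near 0; in C57BL/6J 0 genes pass 2-fold.

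Of the 5 listed regulators of acinar cells, 3 were under 200 on every array. Ptf1a, the DNA-binding subunit that gives PTF1 its name, was under the floor on both A/J arrays and had 127 on C57BL/6J high-fat and 108 on C57BL/6J low-fat. Its partner Rbpjl was under the floor on both A/J arrays and had 111 and 136 on C57BL/6J high-fat and low-fat. Bhlha15, also called Mist1, was under the floor on A/J high-fat and had 128 on A/J low-fat, then 195 on C57BL/6J high-fat and 167 on C57BL/6J low-fat. The other two, Nr5a2 and Gata4, which intestinal epithelium also uses, were brighter. Nr5a2 had 528 on A/J high-fat and 364 on A/J low-fat, with 421 on C57BL/6J high-fat and 350 on C57BL/6J low-fat. Gata4 had 1009 on A/J high-fat and 1199 on A/J low-fat, with 1045 on C57BL/6J high-fat and 1299 on C57BL/6J low-fat.

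Markers of other tissue that the pools could hold were read on the same arrays. Of the islet list, Ins2, an insulin gene, had 14.0 on A/J high-fat, under the floor, and 401 on A/J low-fat, with 275 on C57BL/6J high-fat and 146 on C57BL/6J low-fat. Ins2, read by a probe set the maker marks as able to match other transcripts, was the only one of the 5 measured islet genes past 2-fold in A/J. Gcg and Sst, hormones that gut endocrine cells make too, were 1.04-fold and 1.23-fold lower on A/J high-fat. None of the 3 measured duct genes, Krt19, Cftr and Krt7, reached 2-fold by diet in either strain. Summed signals of the 4 duct genes found were 12198 on A/J high-fat and 10094 on A/J low-fat, with 9451 on C57BL/6J high-fat and 11449 on C57BL/6J low-fat.

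Stomach genes moved partly with the acinar genes. Gkn2, a gastrokine of the stomach surface, was under the floor on A/J high-fat and had 517 on A/J low-fat, with 3001 on C57BL/6J high-fat and a value under the floor on C57BL/6J low-fat. Summed signals of the 7 stomach genes found were 1419 on A/J high-fat and 2966 on A/J low-fat, with 8418 on C57BL/6J high-fat and 1519 on C57BL/6J low-fat. The acid pump subunit gene Atp4a, the mucin gene Muc5ac and the pepsinogen gene Pgc were under the floor on all 4 arrays. Atp4b, the gene of another acid pump subunit, differed from the acinar order: its brightest pool was A/J low-fat, at 199. The high-fat pools gave 131 for A/J and 109 for C57BL/6J, while the C57BL/6J low-fat pool was under the floor. Tff1, a trefoil peptide gene of the stomach surface, had 1090 on A/J high-fat and 1971 on A/J low-fat, with 3965 on C57BL/6J high-fat and 1276 on C57BL/6J low-fat, so it was lowest and highest on the same arrays as the acinar genes. On C57BL/6J low-fat the acinar genes were bright, Tff1 was above the floor, and Gkn1 and Gkn2 were under it. Of the 4 measured duodenal genes, Tff2 was at least 5.01-fold lower on high-fat in A/J and 2.33-fold higher in C57BL/6J, and Cybrd1 was 2.14-fold lower in C57BL/6J. Of the lists of enterocyte, fat cell, liver, ileal, B cell and Paneth cell markers, 0 measured genes reached 2-fold by diet in either strain. The liver and ileal lists had 1 measured gene each. With so few of all genes past 2-fold (1.69% in C57BL/6J), nothing is read from the 0. The liver gene Ttr, left out by its mean signal of under 100, was brightest in the C57BL/6J high-fat pool, at 206. That was a rise of 2.06-fold or more, the low-fat pool of that strain being under the floor. Ttr gave 108 in the A/J low-fat pool, and its A/J high-fat signal was under the floor. The liver gene Alb and the fat cell genes Adipoq and Lep were under the floor on all 4 arrays. The part of stomach, islet or other tissue in the acinar signals was not tested.

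By pattern over the 4 arrays, 4342 other measured genes with a signal of at least 500 on some array were ranked by distance to the median profile of the 10 genes, on the log2 scale with each gene's mean removed. The 10 nearest were Rnase1, Cpb1, Ctrl, Cela2a, Cela1, Cela3b, Tff2, Pfkfb3, Pla2g1b and Klk1. Distances ran from 0.742 for Rnase1 to 2.90 for Klk1, against 0.113 for Cel to 3.15 for Cuzd1 among the 10 genes themselves. Of the 10 nearest, 8 were on the list of other acinar genes. Of the other two, Tff2, a trefoil peptide of stomach and duodenal glands, had 17.4 on A/J high-fat, under the floor, and 501 on A/J low-fat, with 1260 on C57BL/6J high-fat and 541 on C57BL/6J low-fat. Pfkfb3, an enzyme that controls glycolysis, was under the floor on A/J high-fat and had 390 on A/J low-fat, but differed from the acinar order in having 792 on C57BL/6J high-fat and 956 on C57BL/6J low-fat. The next in rank was Ccl20, a chemokine gene. With 4 arrays a likeness of this kind is loose. The 10 genes and the list of other acinar genes were chosen with earlier results of these arrays known, so nothing is read from the 8 on that list.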

How the data were processed

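Per the labels' protocols, total RNA of each pool was made into biotinylated cRNA and hybridised to the array, and the authors used Microarray Suite 5.0 to turn the difference of perfect match and mismatch probes into a hybridisation intensity per probe set at default settings. The deposited intensity is linear, and which target the arrays were scaled to is not stated. Each array was multiplied to bring its mean, trimmed by 2% at each end and without the 64 control probe sets, to 500. Signals under 100 were set to 100 before log2. Genes come from the platform annotation: of 22690 probe sets, 20380 had 1 gene, 691 had several and 1555 had none outside the controls, and only the first were used. Each gene is its probe set of highest mean signal. The maker marks those of Prss2, Cela3b, Klk1, Pla2g1b, Serpini2, Zg16, Ins2, Cftr, Cubn, Hamp and Gkn1 as able to match other transcripts. All 10 symbols matched the RefSeq table by gene number. A gene is called at 2-fold; 1 array per group allows no test. Genes were named by rule: the 10 genes, the measured genes of the other acinar and regulator lists, bright or 2-fold genes of the marker lists (some not printed) and the 10 nearest in pattern. The genes and lists were chosen with earlier results of these data known. The alternatives were quantile normalization, no scaling, equal medians, floors of 50 and 200, a pseudocount of 50, the mean of all probe sets, leaving out shared probe sets, and no filter on mean signal. Scaling, counts and pattern distance were tested on simulated data. Tables were handled with pandas 2.3.3 and numpy 2.4.6 in Python 3.11.15, trimmed means with scipy 1.17.1 and plots with matplotlib 3.10.9.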

Additional observations from a re-analysis of the deposited data

Results flagged for a closer look

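The diet ratio of all 10 acinar genes ran in opposite directions in the strains, lower on high-fat in A/J and higher on high-fat in C57BL/6J. The difference was not tested, since each strain had 1 array per diet. The log2 ratio in A/J minus that in C57BL/6J was -5.98 for Prss2 (by its brightest probe set), -6.56 for Ctrb1, -3.93 for Clps, -6.34 for Cel and -6.33 for 2210010C04Rik. For genes at the floor on A/J high-fat the difference is a bound, at -7.36 or lower for Cpa1, -5.99 or lower for Pnliprp1, -6.76 or lower for Sycn, -4.34 or lower for Gp2 and -3.43 or lower for Cuzd1. The medians of the other acinar genes, with bounds used, differed by -2.08 in the same sense.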

How the results depend on the processing

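Each of the 10 genes stayed lower on A/J high-fat than on A/J low-fat and than on C57BL/6J high-fat, and higher on C57BL/6J high-fat than on low-fat, under the 8 alternatives that recompute the ratios (80 values per comparison). Of the 80 values for A/J over C57BL/6J on low-fat, 3 changed sign. The size in A/J depends on the floor, the scaling and, for Prss2, the probe set: the median log2 ratio of high-fat over low-fat was -4.67 with a floor of 200 and -4.23 with no scaling, where the floor of 100 stands higher against the unscaled signals. For A/J high-fat over C57BL/6J high-fat it was -5.54 and -4.77 in the same order. For Prss2 the log2 ratio of A/J high-fat over low-fat was -5.34 as reported, -6.14 with the mean of all probe sets and -6.61 or lower without shared probe sets; for A/J high-fat over C57BL/6J high-fat it was -5.81, -6.63 and -7.01 or lower. With no scaling, 9 of 10 genes in place of 10 were at least 2-fold lower on A/J high-fat than on A/J low-fat and than on C57BL/6J high-fat (Cuzd1 at -0.75 and -0.76), 1 gene in place of 3 was at least 2-fold higher on C57BL/6J high-fat, and the median of all genes was -0.14 there. In that setting it was 0.19 for A/J low-fat over C57BL/6J low-fat and 0.31 for A/J high-fat over C57BL/6J high-fat. The count of 3 genes at least 2-fold higher on C57BL/6J high-fat fell to 2 with quantile normalization and to 2 with the pseudocount of 50. Without the filter on mean signal, the share of all genes at least 2-fold higher on C57BL/6J high-fat was 0.678%. No paired analysis was possible because each group has 1 array, and no array could be left out of its group for the same reason. Signals near the floor limit the A/J high-fat values.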
